A study of Homo sapiens with 32 samples.

Results

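The genes of sterol and fatty acid synthesis and their regulation by SREBP were examined in MDA-MB-468 cells, a human triple-negative breast cancer line, treated with salinomycin and dasatinib. The list held 38 genes, named for their known roles in these pathways and chosen with earlier results of these data known. Of the 38, 37 were found among the 48804 genes of the count table. They were 18 genes of sterol synthesis, 5 of the SREBP machinery, 6 of sterol transport and 8 of the 9 listed for fatty acid and lipid synthesis. ACACA was not analysed here. All 37 genes passed the filter on low counts at both time points.

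The cells received PBS (control), 0.5 µM salinomycin (Sal, a polyether ionophore antibiotic), 15 µM dasatinib (Das, an inhibitor of SRC-family and ABL tyrosine kinases) or both at those doses (S + D, 15.5 µM in total by label). Each treatment lasted 24 h or 72 h, and each of the 8 conditions had 4 RNA-seq libraries from biological replicates, 32 in all. The design used 1 cell line, 1 dose of each drug and flask cultures in medium with serum. In such bulk RNA, a smaller share of cells with a transcript and less of it in each cell cannot be told apart.

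SREBP-2 and SREBP-1, encoded by SREBF2 and SREBF1, are membrane-bound transcription factors that SCAP escorts from the endoplasmic reticulum to the Golgi when sterols are scarce. INSIG1 and INSIG2 hold this complex in the endoplasmic reticulum when sterols are abundant. Once cleaved, SREBP-2 mainly drives the enzymes from acetyl-CoA to cholesterol, and SREBP-1 mainly those of fatty acid synthesis. The liver X receptors work in the opposite direction: when oxysterols accumulate they raise ABCA1 and ABCG1, which export cholesterol, MYLIP, a ubiquitin ligase that degrades lipoprotein receptors, and SREBF1 itself.

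Promoters of 5 genes are shown because these genes mark the different responses described here: MVD and HMGCS1 rose in all comparisons with control, SREBF2 and INSIG1 belong to the regulatory loop, and ABCA1 fell. Each window runs from 250 bases before to 50 bases after the transcription start, from RefSeq on GRCh38.p14, and is written 5′ to 3′ along the gene. Capitals mark CCAAT on either strand (the NF-Y box, ATTGG on the other strand), CACGTG (the palindromic E-box) and TCACNCCAC (the classical sterol regulatory element, N being any base). None of these motifs overlap in the windows shown.
MVD, chr16:88663042-88663341, minus strand: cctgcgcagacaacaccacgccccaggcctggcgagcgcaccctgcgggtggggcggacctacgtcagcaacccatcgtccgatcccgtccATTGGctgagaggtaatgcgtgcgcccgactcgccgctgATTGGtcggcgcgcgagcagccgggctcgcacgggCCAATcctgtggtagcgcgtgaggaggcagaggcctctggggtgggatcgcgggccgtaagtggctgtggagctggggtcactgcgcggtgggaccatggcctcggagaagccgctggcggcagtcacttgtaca
HMGCS1, chr5:43313363-43313662, minus strand: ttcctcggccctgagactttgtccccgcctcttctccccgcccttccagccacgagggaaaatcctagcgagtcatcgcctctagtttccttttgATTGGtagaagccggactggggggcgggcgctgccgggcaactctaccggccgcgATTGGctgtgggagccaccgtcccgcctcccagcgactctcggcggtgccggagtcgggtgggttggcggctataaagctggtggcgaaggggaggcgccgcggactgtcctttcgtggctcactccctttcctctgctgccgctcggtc
SREBF2, chr22:41832855-41833154, plus strand: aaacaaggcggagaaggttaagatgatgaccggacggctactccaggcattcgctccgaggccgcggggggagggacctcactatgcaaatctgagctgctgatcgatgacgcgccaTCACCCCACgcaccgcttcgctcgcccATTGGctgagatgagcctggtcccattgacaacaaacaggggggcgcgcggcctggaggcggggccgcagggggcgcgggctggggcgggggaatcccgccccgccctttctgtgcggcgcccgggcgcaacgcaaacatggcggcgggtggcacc
INSIG1, chr7:155297628-155297927, plus strand: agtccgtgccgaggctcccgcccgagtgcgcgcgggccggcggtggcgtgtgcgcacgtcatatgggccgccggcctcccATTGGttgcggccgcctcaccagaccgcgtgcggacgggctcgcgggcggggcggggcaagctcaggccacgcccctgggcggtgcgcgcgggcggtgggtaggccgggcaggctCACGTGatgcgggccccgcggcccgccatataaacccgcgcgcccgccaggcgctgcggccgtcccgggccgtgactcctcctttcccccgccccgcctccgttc
ABCA1, chr9:104928106-104928405, minus strand: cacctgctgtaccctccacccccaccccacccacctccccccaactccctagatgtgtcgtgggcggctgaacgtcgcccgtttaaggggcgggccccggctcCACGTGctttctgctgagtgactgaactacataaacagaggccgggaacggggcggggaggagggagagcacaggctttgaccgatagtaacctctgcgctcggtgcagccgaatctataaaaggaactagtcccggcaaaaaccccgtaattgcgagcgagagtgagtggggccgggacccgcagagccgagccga

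The MVD window held CCAAT 3 times and the HMGCS1 window 2 times, whereas the SREBF2 window held 1 CCAAT and 1 TCACNCCAC. The INSIG1 window held 1 CCAAT and 1 CACGTG, and the ABCA1 window held 1 CACGTG and no CCAAT. Windows were found for 33 of the 38 genes and for 27305 genes in all, and a gene with several listed starts was counted when any of its windows held the motif. At least 2 CCAAT boxes were found for 10 of the 15 sterol synthesis genes with a window (66.7%), for 16 of the 33 (48.5%) and for 12.9% of all genes. At least 1 was found for 13 of the 15 (86.7%), for 23 of the 33 (69.7%) and for 39.7% of all genes. CACGTG was found for 5 of the 33 (15.2%), namely SCAP, INSIG1, ABCA1, SC5D and LSS, and for 8.77% of all genes. TCACNCCAC was found for SREBF2 alone among the 33 (3.03%) and for 1.39% of all genes. GGGCGG, an SP1 box also searched on both strands, was found for 32 of the 33 (97%) and for 48.3% of all genes. These are matches of letters within the windows, not measured binding sites.

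The libraries held 25692561 to 42769687 counts, and the 37 genes together took 0.459% to 1.12% of them. In each condition 3 libraries carried a replicate number and 1 did not. The 8 unnumbered libraries stood apart: their deviations from the group means correlated with one another at 0.588 to 0.666 at 24 h and at 0.522 to 0.611 at 72 h, so counts are given with and without them. EGFR, abundant in this line, was at group means of 3594 to 5638 CPM (a gene's count as a share of the library, scaled by TMM). PGR, absent from triple-negative tumours, was at no more than 0.0369 CPM. The 2 markers listed as low in the line, PGR among them, summed to 3.64 to 6.77 CPM in the 24 h controls. Their sum reached 11.97 CPM with Das at 72 h, so the listed low marker other than PGR was detected. The 12 markers of fibroblasts, endothelium, leukocytes and fat cells summed to 20.9 to 39.7 CPM in the 24 h controls and to 70.2 to 124 CPM in S + D at 72 h. Without COL1A1 the other markers summed to 1.83 to 6.47 CPM in every library, with LEP at 0 throughout, and the part of COL1A1 in any result was not tested.

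After 24 h, the sterol synthesis genes rose with every treatment. The same number of them, 14 of 18, passed the test under each of Sal, Das and S + D, and none fell. The medians of their log2 fold changes were 0.81, 0.95 and 0.89, where the medians over all genes tested lay between -0.02 and 0.04. A gene was called at an adjusted p under 0.01 by edgeR's quasi-likelihood test, adjusted by Benjamini-Hochberg over all 16357 genes tested at 24 h.

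Over the whole list, 20 of 37 genes rose with Sal, where 4.55% of all genes tested were called higher, and 0 fell, where 2.23% were called lower. With Das 20 of 37 rose and 0 fell, against 6.99% and 6.88% of all genes. With S + D 20 of 37 rose and 3 fell, against 17.1% and 16.5% of all genes. At an unadjusted p under 0.05, in either direction, 30, 30 and 31 of the 37 genes passed, and DESeq2 called 1 gene lower with Sal (MYLIP), 0 lower with Das and 3 lower with S + D. The 3 treatments share the same 4 control libraries, so their counts are not independent of one another. With the numbered libraries alone, Sal gave 30 higher and 1 lower, Das 28 and 3, and S + D 28 and 5. Of all 16257 genes then tested, 3828, 6382 and 9442 were called in either direction. Whichever library was left out, 14 of the 20 calls for Sal, 13 of the 20 for Das and 17 of the 23 for S + D remained. Without control replicate 1 the count for Das was 13 of 37, and with the control and Sal libraries alone in the model the count for Sal was 11.

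**Figure D1:**
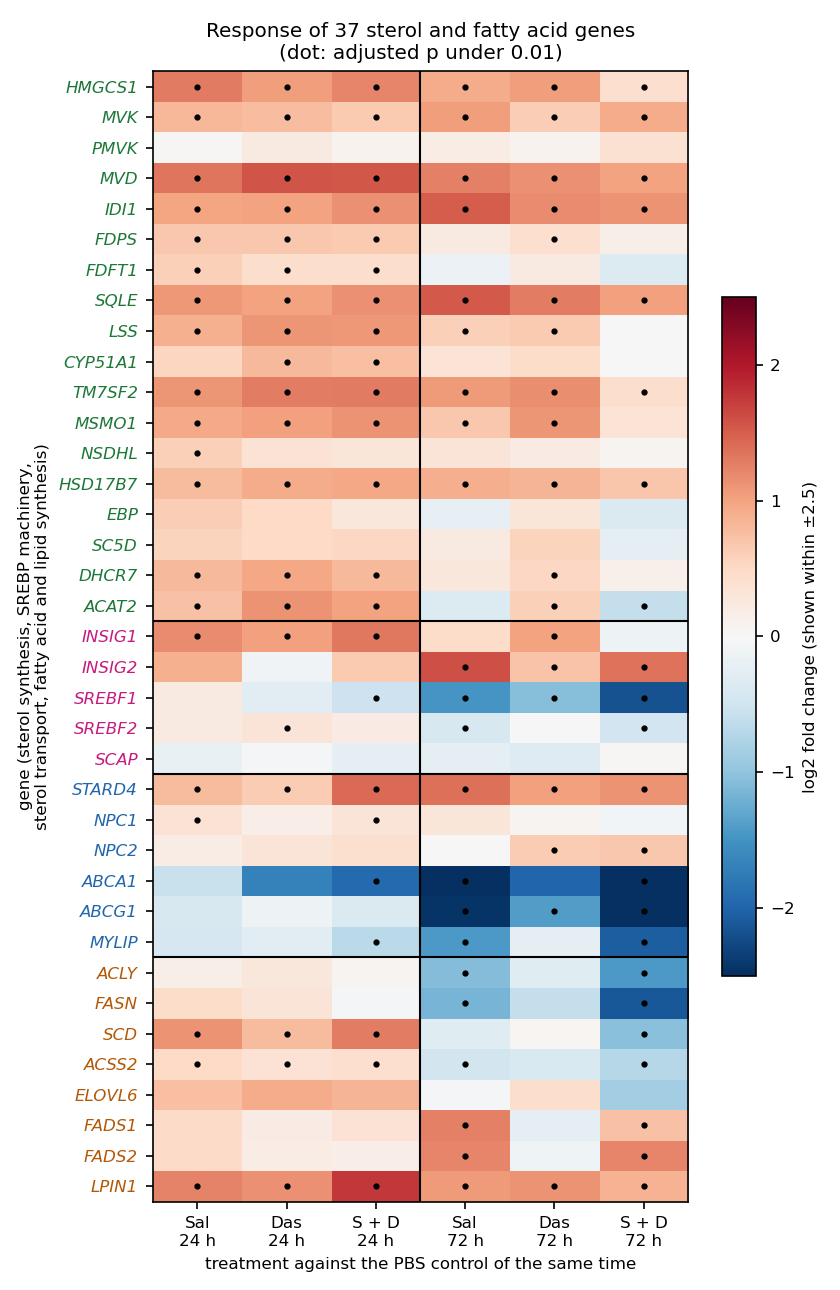
Log2 fold change of each of the 37 measured genes (rows, grouped by role and separated by lines) in each treatment against the PBS control of the same time (columns), coloured from blue (lower) to red (higher) and cut at 2.5 in either direction, with a dot where the adjusted p was under 0.01. The sterol synthesis rows at the top are red or near white in all 3 columns of 24 h, while SREBF1 and ABCG1 are blue in all 3 columns of 72 h and MYLIP, ACLY and FASN in those of Sal and S + D.

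MVD, mevalonate diphosphate decarboxylase (ENSG00000167508, chr16:88718343-88729569 on GRCh37, minus strand), had the largest estimated rise among the sterol synthesis genes with each treatment at 24 h, although with the numbered libraries alone HMGCS1 exceeded it under Sal (log2 fold changes of 1.49 and 1.25). In each list of values that follows, the unnumbered library comes first and replicates 1, 2 and 3 follow. MVD stood at 329.8, 176, 197 and 199.5 CPM in control (226 ± 70.2, SD, n = 4) and at 949, 461, 378 and 511 CPM with Sal (575 ± 255). It stood at 822, 644, 619.6 and 565 CPM with Das (663 ± 112) and at 725, 608, 636 and 633 CPM with S + D (650.3 ± 51.2). Every treated library lay above every control library, and the unnumbered libraries were the highest of their groups. The log2 fold changes (± SE) for Sal, Das and S + D, in this order here and for the genes that follow, were 1.33 ± 0.24, 1.57 ± 0.24 and 1.56 ± 0.24, with edgeR adjusted p of 0.00169, 0.00019 and 7.82e-05.

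SQLE, squalene epoxidase, rose with every treatment too. Its values were 118, 108, 111 and 107 CPM in control, 230.3, 229, 245 and 247 CPM with Sal, and 176, 233, 243 and 231 CPM with Das. With S + D they were 161, 259, 266 and 273 CPM. No treated library reached down to the control range, and with Das and S + D the unnumbered library was the lowest. Its log2 fold changes were 1.09 ± 0.14, 1.01 ± 0.14 and 1.14 ± 0.14 (edgeR adjusted p 0.000114, 8.27e-05 and 8.38e-06). HMGCS1, the synthase that makes HMG-CoA, rose by 1.29 ± 0.19, 1.04 ± 0.18 and 1.22 ± 0.19 on the log2 scale, and IDI1, isopentenyl diphosphate isomerase, by 1.00 ± 0.13, 1.00 ± 0.13 and 1.15 ± 0.13. TM7SF2, a sterol reductase, rose by 1.10 ± 0.15, 1.28 ± 0.15 and 1.30 ± 0.15. Of the middle and late steps, MSMO1, a sterol C4 oxidase, rose by 0.95, 1.02 and 1.12, LSS, lanosterol synthase, by 0.89, 1.09 and 1.08, HSD17B7, a ketoreductase, by 0.80, 0.93 and 0.97, and DHCR7, the 7-dehydrocholesterol reductase, by 0.82, 0.97 and 0.81. MVK, mevalonate kinase, FDPS, farnesyl diphosphate synthase, and FDFT1, squalene synthase, had called rises of 0.44 to 0.82. Of the exon bases of HMGCS1, 37.7% are shared with a gene on the opposite strand, as are 15.0% for IDI1, 18.6% for FDPS and 17.2% for ACAT2, and whether strand was used in counting is not given in the sources used here.

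The enzymes that were not called with every treatment at 24 h were PMVK, CYP51A1, NSDHL, EBP and SC5D. PMVK, phosphomevalonate kinase, had log2 fold changes of only 0.03 ± 0.19, 0.23 ± 0.19 and 0.08 ± 0.19 (edgeR adjusted p 0.941, 0.423 and 0.756). CYP51A1, the lanosterol demethylase, rose with Das (0.81) and S + D (0.75), and NSDHL, which removes sterol C4 methyl groups, rose with Sal (0.59). EBP and SC5D, a sterol isomerase and a desaturase of the last steps, had estimates of 0.29 to 0.61 without a call. A block for the replicate number, with the unnumbered libraries as a level of their own, was also fitted. Pairing by number and the shift of the unnumbered libraries cannot be told apart in it. With this block EBP was called with Sal and Das (adjusted p 0.000209 and 0.000706) and SC5D with all treatments (0.00104, 0.0024 and 0.000853). NSDHL was then called also with Das and S + D (0.00686 and 0.00812). ACAT2, the cytosolic thiolase of the first step, was at 215, 144, 141 and 142 CPM in control and at 349, 238, 237 and 253 CPM with Sal. Its log2 rise of 0.73 ± 0.15 (adjusted p 0.0044) was not called without the unnumbered Sal library (adjusted p 0.0125) or without any 1 of control replicates 1 to 3 (0.0185 to 0.0196).

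In the SREBP machinery, INSIG1 was the member that rose with all treatments at 24 h. It was at 87.9, 59.0, 61.4 and 56.7 CPM in control, 169.6, 137, 147 and 149 CPM with Sal, 139, 126, 133 and 132 CPM with Das, and 124, 168, 175 and 176 CPM with S + D. The groups did not overlap with control. The log2 fold changes were 1.18 ± 0.14, 1.02 ± 0.14 and 1.31 ± 0.14 (edgeR adjusted p 3.70e-05, 5.44e-05 and 1.45e-06). INSIG2 was at 41.8, 30.9, 31.0 and 31.1 CPM in control, at 101, 45.8, 54.5 and 52.1 CPM with Sal, and at 38.1, 28.1, 31.8 and 27.2 CPM with Das. Its difference with Sal, 0.89 ± 0.21, missed the threshold (adjusted p 0.0108), and with the replicate block it passed, with an adjusted p of 5.66e-06. With S + D it was 0.66 ± 0.21 (adjusted p 0.0188, and 1.53e-05 with the block).

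The transcripts of the SREBPs themselves moved less at 24 h. SREBF2 was at 449, 389, 408 and 413 CPM in control and at 496, 529, 491 and 524 CPM with Das, a log2 rise of 0.32 ± 0.07 (edgeR adjusted p 0.00345). All Das libraries lay above all controls, although the call was lost without any 1 of control replicates 1 to 3 or of Das replicates 1 and 3 (adjusted p 0.0125 to 0.0179). SREBF1 was at 127, 129, 145 and 150.1 CPM in control and at 103, 89.8, 91.5 and 90.7 CPM with S + D, a fall by 0.52 ± 0.11 (adjusted p 0.00115). With Sal SREBF1 had an estimate of 0.23 ± 0.11 (adjusted p 0.198). SCAP, the escort, had log2 estimates of -0.19, -0.06 and -0.25 and was not called, except with S + D under the block (adjusted p 0.00957).

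Among the transport genes, STARD4, a cytosolic sterol carrier, rose with every treatment at 24 h. It was at 49.4, 29.2, 33.6 and 30.8 CPM in control, 79.4, 51.2, 68.0 and 52.5 CPM with Sal, 54.2, 52.2, 59.7 and 52.7 CPM with Das, and 92.3, 102, 87.1 and 90.7 CPM with S + D. The S + D libraries were above all others of that time. The log2 fold changes were 0.80 ± 0.16, 0.63 ± 0.16 and 1.41 ± 0.16 (edgeR adjusted p 0.00312, 0.00803 and 3.29e-06). Without any 1 of control replicates 1 to 3 the call was lost with Sal (adjusted p 0.0137 to 0.0151) and with Das (0.029 to 0.0333), and with Das also without any 1 Das library (0.0136 to 0.027). NPC1, which moves cholesterol out of lysosomes, rose by 0.35 ± 0.07 with Sal and by 0.32 ± 0.07 with S + D. NPC2, a lysosomal cholesterol carrier, had an estimate of 0.40 with S + D (adjusted p 0.0914, and 0.000579 with the block).

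ABCA1 and MYLIP fell with S + D at 24 h. ABCA1 was at 1.36, 2.36, 1.95 and 2.29 CPM in control and at 0.293, 0.512, 0.607 and 0.599 CPM with S + D, so that it was a rare transcript in both. Its log2 change of -1.94 ± 0.56 had an adjusted p of 0.00932, and leaving out any 1 library other than the unnumbered control took the call away (0.0174 to 0.026). With Das it was at 0.165, 0.808, 0.708 and 0.792 CPM, below every control, with a change of -1.69 ± 0.55 (adjusted p 0.0341, and 0.000276 with the replicate block). MYLIP was at 23.9, 30.7, 29.6 and 32.8 CPM in control and at 18.8, 16.4, 17.2 and 18.8 CPM with S + D, without overlap, and fell by 0.68 ± 0.13 (edgeR adjusted p 0.000355). With Sal the change of MYLIP was -0.43 ± 0.12 (adjusted p 0.0306, and 0.00735 with the block). ABCG1 was at 1.95, 3.63, 4.33 and 4.24 CPM in control and at 0.981, 3.33, 3.09 and 3.32 CPM with Sal, with overlapping groups.

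In the fatty acid and lipid group, 3 of 8 genes rose at 24 h with each treatment: SCD, the stearoyl-CoA desaturase, ACSS2, which makes acetyl-CoA from acetate, and LPIN1, a phosphatidate phosphatase. LPIN1 was at 39.5, 36.6, 35.5 and 35.2 CPM in control, 82.8, 84.7, 91.6 and 89.5 CPM with Sal, 55.9, 90.7, 89.4 and 82.4 CPM with Das, and 82.1, 136, 133 and 134 CPM with S + D. Each treated library exceeded each control, with the unnumbered Das and S + D libraries lowest in their groups. LPIN1 rose by 1.24 ± 0.16, 1.14 ± 0.16 and 1.76 ± 0.16 on the log2 scale (edgeR adjusted p 0.000114, 9.03e-05 and 4.47e-07). SCD rose by 1.12 ± 0.16, 0.79 ± 0.16 and 1.28 ± 0.16, and ACSS2 by 0.50 ± 0.08, 0.37 ± 0.08 and 0.42 ± 0.08. The log2 estimates for FASN, fatty acid synthase, were 0.46, 0.33 and -0.06 without a call (adjusted p 0.0197, 0.0638 and 0.737), and that of 0.46 with Sal had an adjusted p of 0.00676 with the replicate block. ELOVL6, a fatty acid elongase, had estimates of 0.74, 0.92 and 0.85 and was called in all 3 comparisons under that block (adjusted p 0.000567, 2.78e-05 and 4.68e-05). ACLY had an estimate of 0.28 with Das (adjusted p 0.0263, and 0.00788 with the block), and FADS1 and FADS2 ones of 0.47 and 0.47 with Sal (0.00444 and 0.00152 with the block).

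After 72 h, the groups parted: 9 of the 18 sterol synthesis genes were called higher with Sal and 12 with Das, while SREBF1 and ABCG1 fell with every treatment and ABCA1, FASN and ACLY with Sal and S + D. With Sal 14 of 37 genes rose and 8 fell, against 26.3% and 26.8% of the 16682 genes tested at 72 h. With Das 17 rose and 2 fell, against 10.5% and 9.36% of all genes. With S + D 13 rose and 10 fell, against 27% and 27.9% of all genes. The counts called lower with Sal and S + D, 8 and 10 of 37, were thus below and near the shares of all genes, 26.8% and 27.9%. Those called higher with Sal and S + D, 14 and 13 of 37, stood less far above their shares than the 17 with Das. With the numbered libraries alone Sal gave 15 higher and 9 lower, Das 17 and 5, and S + D 12 and 13. Of all 16527 genes then tested, 9476, 3742 and 9558 were called in either direction. Whichever library was left out, 21 of the 22 calls for Sal, 14 of the 19 for Das and 21 of the 23 for S + D remained.

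Of the 18 sterol synthesis genes, 9 rose under Sal at 72 h, 12 under Das and 7 under S + D, beside 26.3%, 10.5% and 27% of all genes. The medians of their log2 fold changes were 0.47, 0.61 and 0.24. SQLE was at 46.9, 95.7, 91.0 and 82.8 CPM in control, 191, 224, 255 and 259.7 CPM with Sal, 124, 226, 240.0 and 187 CPM with Das, and 139, 188, 163 and 160.1 CPM with S + D. All treated libraries were above all controls, and the unnumbered library was the lowest of each group. The log2 fold changes were 1.54 ± 0.21, 1.29 ± 0.21 and 1.02 ± 0.21 (edgeR adjusted p 7.53e-06, 0.000238 and 0.000382). IDI1 was at 92.9, 158, 143 and 139 CPM in control, 325, 403, 406 and 408 CPM with Sal, 218, 349, 367 and 286 CPM with Das, and 283, 343, 270.4 and 274 CPM with S + D. IDI1 rose by 1.52 ± 0.17, 1.19 ± 0.17 and 1.12 ± 0.17 on the log2 scale, again without overlap.

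MVD at 72 h was at 131, 157, 156 and 189 CPM in control, 438, 441, 331 and 328 CPM with Sal, 377, 393, 365 and 278 CPM with Das, and 358, 341, 293 and 297 CPM with S + D. Every treated library was again above every control. The log2 fold changes were 1.26 ± 0.15, 1.15 ± 0.15 and 1.01 ± 0.14 (edgeR adjusted p 1.07e-06, 2.29e-05 and 1.00e-05). MVK rose by 1.04 ± 0.14, 0.62 ± 0.14 and 0.92 ± 0.14, and HSD17B7 by 0.91 ± 0.16, 0.85 ± 0.16 and 0.70 ± 0.16. HMGCS1 and TM7SF2 were near the threshold with S + D at 72 h, with rises of 0.42 ± 0.13 and 0.45 ± 0.13 (adjusted p 0.00984 and 0.00577). HMGCS1 lost its call without any 1 of 7 of the 8 libraries compared, control replicate 1 being the exception (0.0113 to 0.041), and TM7SF2 without the unnumbered control, control replicate 1 or S + D replicates 1 and 3 (0.0113 to 0.0252).

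ACAT2 was called in opposite directions at 72 h. It was at 99.8, 115, 109 and 99.3 CPM in control, 139, 157, 162 and 185 CPM with Das, and 84.5, 81.0, 59.6 and 57.3 CPM with S + D. All Das libraries were above and all S + D libraries below the controls, with log2 changes of 0.60 ± 0.13 and -0.60 ± 0.13 (edgeR adjusted p 0.00217 and 0.000667). With Sal it was at 91.8, 86.0, 83.0 and 77.2 CPM, below the controls too, but with an adjusted p of 0.0307 for a change of -0.34 ± 0.13. LSS and MSMO1 rose with Sal (0.60 and 0.68) and with Das (0.66 and 1.11), and had estimates of 0.00 and 0.34 with S + D.

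The regulators moved apart from one another at 72 h. INSIG2 was at 42.6, 46.1, 42.3 and 39.5 CPM in control, 127, 123, 141 and 139 CPM with Sal, 64.4, 86.7, 85.1 and 45.9 CPM with Das, and 109.6, 128, 106 and 101 CPM with S + D. The Sal and S + D libraries were well above control, whereas Das replicate 3 lay within the control range. The log2 rises were 1.62 ± 0.16, 0.72 ± 0.15 and 1.37 ± 0.16 (edgeR adjusted p 1.96e-07, 0.00198 and 8.86e-07), and that with Das was not called without Das replicate 1 or 2 (0.0102 and 0.01). INSIG1 was at 39.2, 79.0, 69.5 and 67.8 CPM in control, 65.0, 92.1, 102 and 96.9 CPM with Sal, 95.6, 135, 148 and 135 CPM with Das, and 56.5, 68.5, 56.4 and 55.3 CPM with S + D. INSIG1 rose with Das (1.00 ± 0.19, adjusted p 0.000839) without overlap, while the Sal libraries (0.46 ± 0.19, adjusted p 0.0429) and the S + D libraries (-0.13 ± 0.19, adjusted p 0.571) overlapped the controls.

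SREBF1 (ENSG00000072310, chr17:17713713-17740316 on GRCh37, minus strand) fell with every treatment at 72 h. It was at 142, 152, 152 and 191 CPM in control, 86.4, 62.2, 42.5 and 41.4 CPM with Sal, 97.9, 65.8, 61.4 and 82.0 CPM with Das, and 45.5, 29.2, 32.6 and 34.6 CPM with S + D. No treated library came near the controls, and S + D was lowest. The log2 changes were -1.47 ± 0.22, -1.06 ± 0.22 and -2.18 ± 0.22 (edgeR adjusted p 1.56e-05, 0.00135 and 2.74e-07). SREBF2 was at 410.2, 431, 426 and 491 CPM in control, 375, 353, 301 and 313 CPM with Sal, 488, 413, 412 and 455 CPM with Das, and 367, 275, 313 and 323 CPM with S + D. It fell by 0.41 ± 0.11 with Sal (adjusted p 0.00427) and by 0.48 ± 0.11 with S + D (adjusted p 0.00125), and Das overlapped control at 0.00 ± 0.11 (adjusted p 0.997). The fall with Sal was not called without control replicate 2 or 3 or without Sal replicate 2 or 3 (0.0114 to 0.0187).

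**Figure D2:**
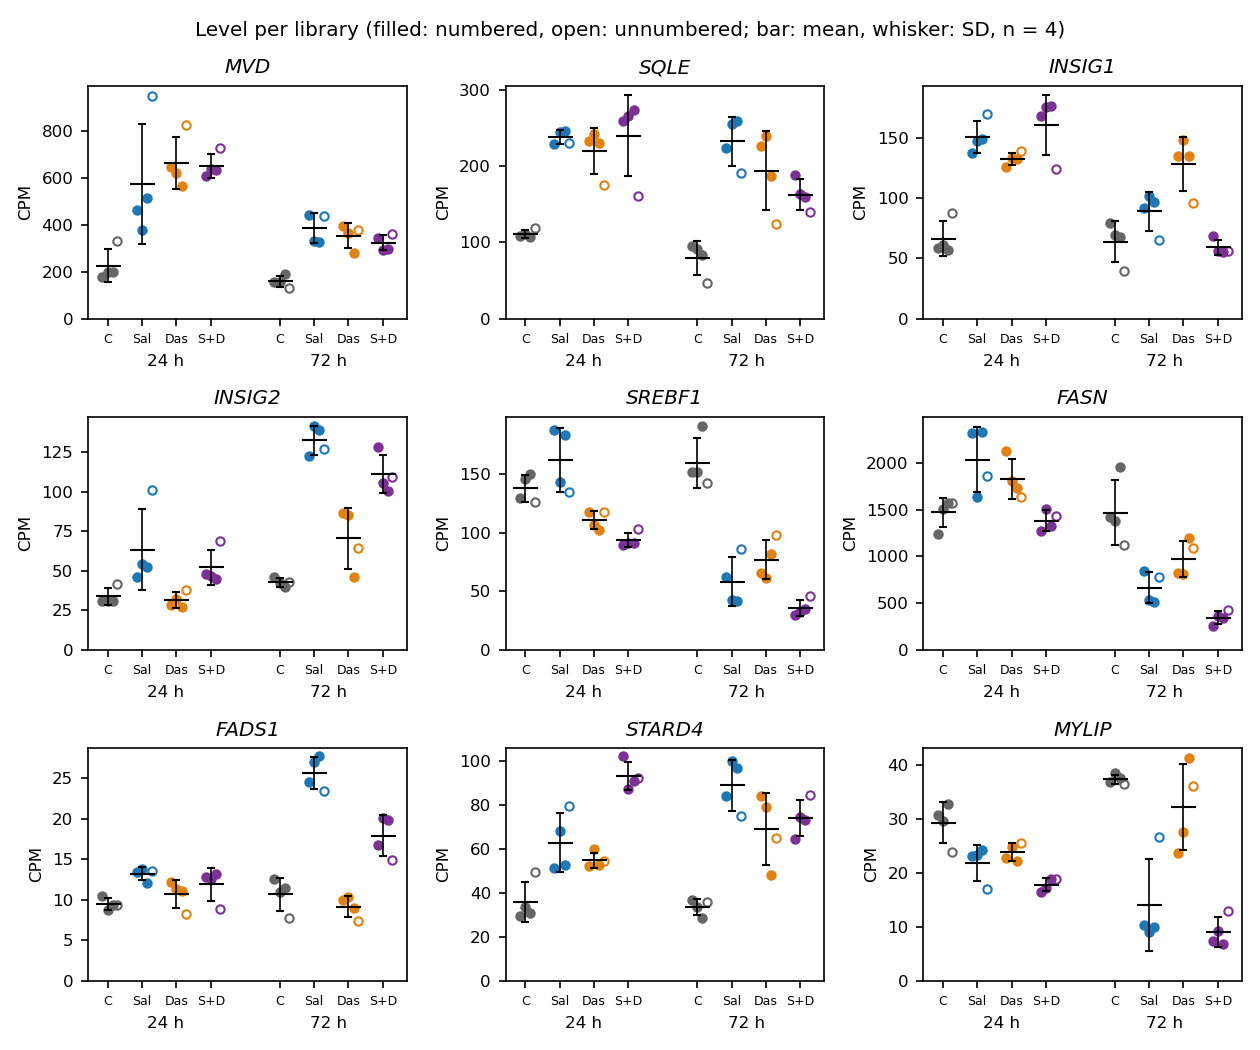
Level in CPM (vertical axis, from 0) of 9 genes in each of the 32 libraries, by condition (C, control in grey, Sal in blue, Das in orange, S+D in purple) at 24 h and 72 h. Filled points are numbered libraries, open points the unnumbered one, the bar is the mean and the whisker the SD (n = 4). MVD and SQLE are above control in every treated library, while SREBF1, FASN and MYLIP have their lowest means with S + D at 72 h.

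The cholesterol exporters ABCG1 and ABCA1 had the deepest falls of the list at 72 h with Sal and S + D. ABCG1 (ENSG00000160179, chr21:43619799-43717354 on GRCh37, plus strand) was at 6.33, 9.81, 11.2 and 10.3 CPM in control, 3.35, 1.61, 0.830 and 1.03 CPM with Sal, 4.07, 2.58, 2.90 and 4.76 CPM with Das, and 1.68, 0.993, 0.864 and 1.28 CPM with S + D. All treated libraries were below all controls. The log2 changes were -2.46 ± 0.36, -1.40 ± 0.34 and -2.98 ± 0.37 (edgeR adjusted p 1.31e-05, 0.00471 and 2.09e-06), and that with Das was not called without any 1 of control replicates 1 to 3 or without Das replicate 1 or 2 (0.0117 to 0.0201). ABCA1 was at 2.42, 2.68, 3.17 and 3.34 CPM in control, 0.940, 0.0700, 0.0664 and 0.283 CPM with Sal, 0.490, 0.404, 0.322 and 1.71 CPM with Das, and 0.337, 0.128, 0.0524 and 0.0895 CPM with S + D. Every treated library was below control, but these levels rest on 80 to 120 counts a library in control, 2 to 37 with Sal and 2 to 12 with S + D, so that the sizes are uncertain. The log2 changes were -3.01 ± 0.63 with Sal and -4.24 ± 0.70 with S + D (adjusted p 0.000452 and 4.47e-05). With Das the change was -1.99 ± 0.58 (adjusted p 0.0144), and without Das replicate 3, the highest of its group, it was -2.80 with an adjusted p of 0.00117.

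MYLIP at 72 h was at 36.5, 36.9, 38.5 and 37.5 CPM in control, 26.7, 10.3, 9.03 and 10.0 CPM with Sal, 36.1, 23.7, 27.6 and 41.3 CPM with Das, and 12.9, 7.27, 9.14 and 6.83 CPM with S + D. It fell by 1.43 ± 0.30 with Sal and by 2.06 ± 0.30 with S + D (edgeR adjusted p 0.00043 and 1.33e-05), the unnumbered Sal library being the highest of its group. Das overlapped control, with an estimate of -0.22 ± 0.29 (adjusted p 0.586). STARD4 went the other way, from 35.9, 36.4, 33.7 and 28.5 CPM in control to 74.9, 83.9, 99.9 and 96.9 CPM with Sal, 64.8, 84.0, 79.0 and 47.9 CPM with Das, and 84.4, 64.2, 74.3 and 73.1 CPM with S + D. Its rises of 1.39 ± 0.16, 1.03 ± 0.16 and 1.12 ± 0.16 had no overlap with control. NPC2 rose with Das (0.64 ± 0.13) and S + D (0.68 ± 0.13), with an estimate of -0.01 with Sal.

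Within fatty acid synthesis, FASN and the desaturases FADS1 and FADS2 were called in opposite directions at 72 h. FASN (ENSG00000169710, chr17:80036214-80056170 on GRCh37, minus strand) was at 1119, 1423, 1378 and 1954 CPM in control, 781, 838, 529.9 and 508 CPM with Sal, 1088, 818, 808 and 1191 CPM with Das, and 423, 250.05, 358 and 338 CPM with S + D. The Sal and S + D libraries were below all controls and the Das libraries overlapped them. FASN fell by 1.16 ± 0.21 with Sal and by 2.12 ± 0.22 with S + D (edgeR adjusted p 0.000121 and 2.76e-07), and its change with Das was -0.60 ± 0.21 (adjusted p 0.036). ACLY, the ATP citrate lyase that supplies cytosolic acetyl-CoA, fell by 1.08 ± 0.12 with Sal and by 1.44 ± 0.12 with S + D. ACSS2 fell by 0.46 ± 0.11 with Sal and by 0.72 ± 0.11 with S + D, and SCD fell by 1.04 ± 0.22 with S + D.

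FADS1, the delta-5 desaturase of polyunsaturated fatty acids, was at 7.73, 12.5, 10.9 and 11.4 CPM in control, 23.4, 24.5, 27.0 and 27.7 CPM with Sal, 7.37, 9.92, 10.3 and 8.95 CPM with Das, and 14.8, 16.7, 20.1 and 19.8 CPM with S + D. FADS2, the delta-6 desaturase, was at 5.71, 8.81, 8.70 and 10.1 CPM in control, 13.6, 23.1, 19.3 and 22.8 CPM with Sal, 6.81, 9.02, 7.54 and 7.90 CPM with Das, and 12.01, 21.5, 22.7 and 22.8 CPM with S + D. For both genes the Sal and S + D libraries were above all controls and the Das libraries overlapped them. FADS1 rose by 1.25 ± 0.16 and 0.73 ± 0.16 and FADS2 by 1.22 ± 0.22 and 1.23 ± 0.22 with Sal and S + D (edgeR adjusted p 2.73e-06, 0.000554, 0.000115 and 0.000104). LPIN1 rose with all treatments, from 24.2, 39.1, 38.5 and 38.2 CPM in control to 62.6, 75.6, 81.3 and 75.5 CPM with Sal, 53.9, 93.8, 94.4 and 63.0 CPM with Das, and 66.1, 55.9, 67.4 and 68.1 CPM with S + D, by 1.06 ± 0.18, 1.12 ± 0.18 and 0.86 ± 0.18. EBP, ELOVL6, PMVK, SC5D and SCAP were called in none of the 6 comparisons with control. With the numbered libraries alone at 72 h, SC5D was called higher with Das (adjusted p 0.000856) and SCAP lower with Das (0.00864). EBP and ELOVL6 were then called lower with S + D (0.00462 and 0.00094).

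Whether a response itself changed between 24 h and 72 h was tested across all 32 libraries, over 17227 genes. The response to Sal was higher at 72 h for 1 of 37 genes and lower for 10, against 8.21% and 13.7% of all genes, and that to S + D was higher for 1 and lower for 16, against 6.15% and 10.1%. The response to Das was higher for 0 and lower for 1, against 0.0522% and 0.174% of all genes, and 10 of the 37 had an unadjusted p under 0.05. DESeq2 gave 0 and 1 for Das as well. With the numbered libraries alone the counts were 4 and 19 for Sal, 0 and 7 for Das and 2 and 25 for S + D. Of all 17043 genes then tested, 6705, 607 and 5372 were called in either direction. Between the control groups, 0 of 37 genes were higher and 1 (LSS, a change of -0.74 ± 0.15) was lower at 72 h, against 2% and 0.76% of all genes, with 14 at an unadjusted p under 0.05 and 1 higher and 4 lower by DESeq2. The estimates of all sterol synthesis genes in this comparison were below 0, from -0.74 (LSS) to -0.13 (FDPS), beside a median of 0 over all genes. With the numbered libraries alone they ran from -0.53 (LSS) to 0.15 (MSMO1).

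SCD had one of the widest shifts between the time points. Its log2 response to S + D went from 1.28 at 24 h to -1.04 at 72 h, a difference of -2.27 ± 0.28 (edgeR adjusted p 1.71e-06), and with Sal the difference was -1.40 ± 0.28 (0.000338). FASN differed by -1.61 ± 0.25 with Sal and by -2.01 ± 0.25 with S + D, and ACLY by -1.21 ± 0.15 and -1.45 ± 0.15. SREBF1 differed by -1.69 ± 0.25 and -1.61 ± 0.25, and ACAT2 by -1.07 ± 0.21 and -1.55 ± 0.21. FADS1 with Sal (0.79 ± 0.21) and FADS2 with S + D (1.12 ± 0.29) were the members whose responses were higher at 72 h. ACSS2 was the gene whose response to Das was lower, by -0.72 ± 0.13 (adjusted p 0.0041), and this call was lost without any 1 of 9 libraries (0.0105 to 0.0169), among them the numbered controls of both times. MVD, SQLE, IDI1, HMGCS1, MVK, HSD17B7, STARD4 and LPIN1 were not called in any of the 3 tests of the time difference.

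**Figure D3:**
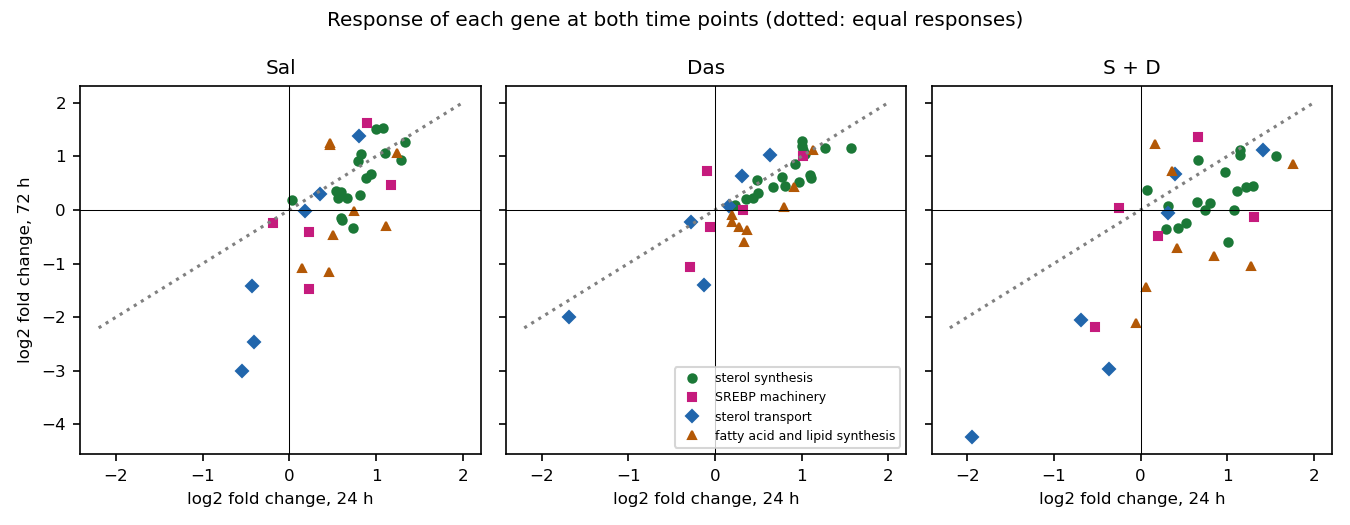
Log2 fold change against control at 24 h (horizontal axis) and at 72 h (vertical axis) for each of the 37 genes, in 1 panel for each treatment, with marker and colour by role and a dotted line where both are equal. With Sal and S + D the fatty acid genes (triangles) fall mostly below the line and ABCA1, ABCG1 and MYLIP far below 0, whereas with Das most points lie close to the line.

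What the second drug added was asked by comparing S + D with each single drug. At 24 h few genes of the list were called. Against Sal, 1 of 37 genes was higher and 2 were lower, where 5.83% and 7.06% of all genes were, and against Das 1 was higher and 0 lower, where 4.03% and 4.46% were. For the 18 sterol synthesis genes the differences lay between -0.32 and 0.27 log2 units against Sal and between -0.20 and 0.18 against Das, with SE of 0.10 to 0.24. STARD4 was higher with S + D than with Sal (0.61 ± 0.16, edgeR adjusted p 0.00993) and than with Das (0.78 ± 0.16, adjusted p 0.00316). SREBF1 (-0.75 ± 0.11, adjusted p 0.000162) and FASN (-0.51 ± 0.12, adjusted p 0.00655) were lower than with Sal. Of these the SREBF1 call alone held whichever library was left out, the adjusted p reaching 0.0565 for STARD4 against Sal without Sal replicate 1, 0.0132 for STARD4 against Das without Das replicate 1, and 0.026 for FASN without S + D replicate 1. With the replicate block 5 of 37 genes were called in each of these comparisons. Of all 16357 genes tested, 4520 were then called against Sal and 3595 against Das, so these counts are not above the background. Those added against Sal were LPIN1 (0.52, adjusted p 0.00312 with the block) and ABCA1 (-1.39, 0.00678), and those added against Das were INSIG2 (0.75, 2.56e-05), SCD (0.48, 1.50e-05), LPIN1 (0.62, 0.000783) and MYLIP (-0.41, 0.00923). With the numbered libraries alone the counts were 11 higher and 6 lower against Sal and 8 and 4 against Das. Of all 16257 genes then tested, 6731 and 5351 were called in either direction. For the 0 lower against Das, 9 genes had an unadjusted p under 0.05 in either direction and DESeq2 called 1 lower.

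At 72 h more of these genes were called between S + D and Das than between S + D and Sal. Against Das, 3 of 37 genes were higher with S + D and 17 lower, where 14.3% and 17.7% of all genes were. The numbered libraries alone gave 3 and 20, where 6047 of all 16527 genes tested were called in either direction. INSIG2 (0.65 ± 0.15), FADS1 (0.96 ± 0.16) and FADS2 (1.33 ± 0.22) were the 3 that were higher with all libraries. With the numbered libraries alone SCAP (adjusted p 0.00317) took the place of INSIG2 (0.0155), whose call was also lost without S + D replicate 1 (0.0106). Among the lower genes were ACAT2 (-1.20 ± 0.13, edgeR adjusted p 2.96e-06), ACLY (-1.13 ± 0.12), FASN (-1.52 ± 0.21), MYLIP (-1.84 ± 0.30), ABCG1 (-1.58 ± 0.36), SREBF1 (-1.12 ± 0.22) and INSIG1 (-1.13 ± 0.19). Against Sal, 1 of 37 was higher and 2 were lower, where 1.42% and 1.59% of all genes were. Of the 37 estimates 33 were below 0, and the median over all genes was itself below 0, at -0.03. NPC2 was higher (0.69 ± 0.13, adjusted p 0.00352) and FASN (-0.95 ± 0.21, adjusted p 0.00959) and TM7SF2 (-0.61 ± 0.13, adjusted p 0.00697) were lower. None of these 3 held whichever library was left out: without Sal replicate 1 none was called, with adjusted p of 0.0146, 0.0369 and 0.0256. With the numbered libraries alone 1 was higher and 5 were lower, where 713 of all 16527 genes tested were called in either direction.

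The combined response was also compared with the sum of both single responses on the log2 scale. At 72 h the combination fell short of the sum for 13 of 37 genes and exceeded it for 0, where 4.09% and 3.43% of all genes did, and 25 genes had an unadjusted p under 0.05. The 13 were HMGCS1, MVD, IDI1, SQLE, LSS, TM7SF2, MSMO1, HSD17B7, ACAT2, INSIG1, INSIG2, STARD4 and LPIN1. For SQLE the single responses summed to 2.83 and the combined response was 1.02, a shortfall of -1.80 ± 0.30 (edgeR adjusted p 0.000875). For INSIG1 the sum was 1.46 and the combined response -0.13 (-1.59 ± 0.27, adjusted p 0.00109). TM7SF2 (-1.78 ± 0.18, adjusted p 2.02e-05) and HMGCS1 (-1.54 ± 0.19) had shortfalls of like size. Among genes that fell, the departures were 0.35 ± 0.30 for SREBF1, -0.36 ± 0.30 for FASN and 0.88 ± 0.50 for ABCG1, none of them called. Leaving out 1 library at a time gave 10 to 17 calls, the numbered libraries alone 16 below and 1 above, and DESeq2 17 below and 1 above. Over all genes tested, in either direction, the numbered libraries alone called 2125 of 16527 and DESeq2 2309 of 17177. The calls for ACAT2, HSD17B7 and INSIG2 were lost without any 1 of 9 to 11 libraries (adjusted p up to 0.0187).

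At 24 h edgeR called a departure from the sum for 0 of 37 genes in either direction, where 0.0306% of all genes were called below and 0% above. The estimates were below 0 for 33 of the 37, among them all 18 of sterol synthesis, with a median of -0.62 beside -0.01 over all genes, and 25 genes had an unadjusted p under 0.05. DESeq2 called 11 below the sum, the replicate block 11 and the numbered libraries alone 26. Over all genes tested, in either direction, these settings called 140 of 15226, 117 of 16357 and 827 of 16257. MVD had a departure of -1.34 ± 0.34 (adjusted p 0.131) and STARD4, whose singles summed to 1.43 beside a combined 1.41, one of -0.02 ± 0.22 (adjusted p 0.998). Whether the 24 h and 72 h departures differ was not tested.

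**Figure D4:**
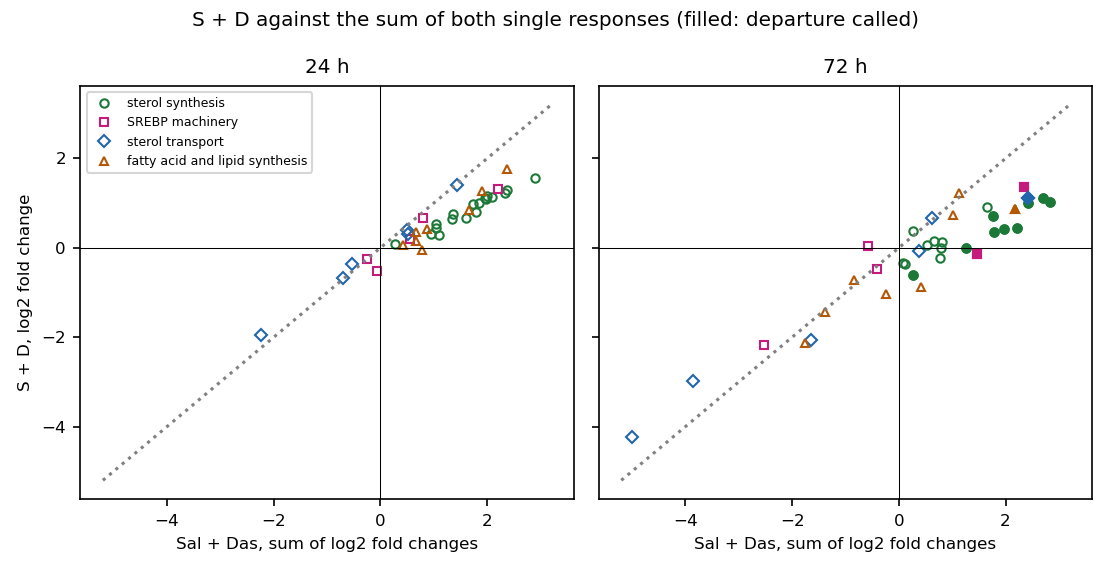
Log2 fold change of S + D against control (vertical axis) and the sum of the Sal and Das log2 fold changes (horizontal axis) for each of the 37 genes at 24 h and 72 h, with marker and colour by role, a dotted line where both are equal, and filled markers where the departure was called. At 72 h the 13 filled markers lie below the line, most of them sterol synthesis genes (circles), and at 24 h no marker is filled.

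Other genes of both pathways, from lists of 24 each, were counted beside these. Of 23 other sterol genes tested, 2, 2 and 5 rose and 0, 1 and 3 fell with Sal, Das and S + D at 24 h, and 8, 3 and 8 rose and 7, 1 and 8 fell at 72 h. Of all genes, 4.55%, 6.99% and 17.1% rose and 2.23%, 6.88% and 16.5% fell at 24 h, and 26.3%, 10.5% and 27% rose and 26.8%, 9.36% and 27.9% fell at 72 h, so that several of these counts are near the background. Of the other fatty acid and lipid genes, 22 were tested at 24 h, where 1, 3 and 4 rose and 0, 0 and 3 fell, and 23 at 72 h, where 3, 2 and 8 rose and 5, 3 and 7 fell, again beside those shares of all genes. DHDDS, a subunit of the enzyme that elongates farnesyl diphosphate to the dolichol precursor, had the largest rises of both lists at 72 h with Sal, Das and S + D. It was at 75.9, 88.1, 84.7 and 87.5 CPM in control at 72 h, 627, 605, 577 and 572 CPM with Sal, 240.1, 423, 357 and 98.0 CPM with Das, and 483, 519, 547 and 555 CPM with S + D. All treated libraries were above control, with Das widely spread, and the log2 rises were 2.81 ± 0.29, 1.73 ± 0.28 and 2.63 ± 0.28 (edgeR adjusted p 3.08e-07, 0.000184 and 4.63e-07). MLXIPL, a glucose-responsive activator of lipogenic genes, rose by 1.83 ± 0.16 with Das and by 2.08 ± 0.16 with S + D at 24 h and by 1.79 ± 0.29 with S + D at 72 h, from group means of 1.40 and 1.71 CPM in the controls. TMEM97, an SREBP target that binds NPC1, fell at 72 h with S + D (-1.67 ± 0.20). CYP27A1, a sterol hydroxylase, fell with Sal (-1.55 ± 0.15) and S + D (-1.57 ± 0.15), and EBPL, a homologue of EBP, fell with Sal (-1.56 ± 0.21).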

How the data were processed

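RNA was sequenced from MDA-MB-468 cells under 8 conditions, with 4 libraries each, and samples were grouped by treatment and time as their labels give them. The authors deposited a table of raw read counts (whole numbers, not normalized) with 48804 Ensembl genes and 32 libraries. The submitters' processing notes name bcl2fastq 2.19, STAR 2.5.2, GRCh37, Cufflinks 2.1.1 and DESeq2. The program that counted reads, its annotation and its use of strand are not given in the sources used here, so reads of overlapping genes may be misassigned. Total counts ran from 25692561 to 42769687, and 46537 identifiers matched the annotation used for symbols and GRCh37 coordinates. In 8 libraries the column name gives the condition but no replicate number.

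Read counts went into edgeR 4.0.16 (R 4.3.3) after TMM scaling and filterByExpr with a minimum count of 10. Its quasi-likelihood test was used, and p was adjusted over all genes tested by Benjamini-Hochberg. A gene was called at an adjusted p under 0.01. Each time point was fitted on its own 16 libraries, and comparisons between times on all 32. SE were computed from the F statistic. CPM were scaled by TMM factors over all libraries. At 24 h, deviations of same-numbered libraries from their group means correlated at 0.135 to 0.321 over all pairs. Those of different numbers correlated at -0.524 to 0.353, with a median of -0.0627. At 72 h the lowest value for the same number was -0.0303. Because these ranges overlap, the values do not settle whether the numbers pair the libraries. Alternatives were DESeq2 1.42.0, other size factors, no filter, other sets of libraries, a replicate block, a term for the unnumbered libraries, other thresholds and leaving out each library. The edgeR test of Sal against control at 24 h was tried on simulated counts with known changes. That simulation held no effect of the unnumbered libraries or of the replicate number. The members and the gene lists were chosen with earlier results of these data known. Per-library values are given for the called gene with the largest rise and with the largest fall in each role group and comparison (mean of at least 1 CPM in either group) and for 5 preset genes (INSIG1, SREBF1, SREBF2, ABCA1 and MYLIP). Other pathway genes are named where called with an absolute log2 fold change above 1.5. Of these, 1 gene is not reported here.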

Additional observations from a re-analysis of the deposited data

Results flagged for a closer look

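Dixon's ratio was computed for the 16 genes with values per library in each of the 8 conditions, 128 groups of 4 libraries, and 26 of them held 1 library far from the other 3. Chance gives about 1 in 20 groups. The library was the unnumbered one in 22 of the 26. In the 24 h controls these were MVD at 329.8 CPM, ACAT2 at 215, INSIG1 at 87.9 and INSIG2 at 41.8, each the highest of its group. With Sal at 24 h they were ACAT2 at 349 CPM and INSIG2 at 101 on the high side, and ABCA1 at 0.140, ABCG1 at 0.981 and MYLIP at 16.9 on the low side. With Das at 24 h they were ACAT2 at 429 CPM, high, and ABCA1 at 0.165 and FADS2 at 6.80, low. With S + D at 24 h INSIG2 at 68.9 CPM and SREBF1 at 103 were high, and SQLE at 161, INSIG1 at 124, FADS1 at 8.85 and LPIN1 at 82.1 were low. At 72 h they were LPIN1 in control at 24.2 CPM, IDI1 with Sal at 325, MYLIP with Sal at 26.7 and FADS2 with S + D at 12.01. The other 4 were IDI1 at 343 CPM, INSIG1 at 68.5 and LPIN1 at 55.9 in S + D replicate 1 at 72 h, and ABCA1 at 1.71 in Das replicate 3 at 72 h.

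The response to a treatment differed between 24 h and 72 h in 29 cases by edgeR's quasi-likelihood test of the difference with Benjamini-Hochberg adjustment. The values are log2 fold changes at 72 h minus those at 24 h. With Sal they were -0.74 for FDFT1, -0.80 for EBP, -1.07 for ACAT2, -1.69 for SREBF1, -0.63 for SREBF2 and -2.04 for ABCG1. For the fatty acid genes with Sal they were -1.21 for ACLY, -1.61 for FASN, -1.40 for SCD, -0.96 for ACSS2 and 0.79 for FADS1. With Das the difference was -0.72 for ACSS2. With S + D they were -0.72 for FDFT1, -1.03 for LSS, -0.81 for TM7SF2, -0.72 for MSMO1, -0.64 for DHCR7 and -1.55 for ACAT2. For regulators and transport genes with S + D they were -1.39 for INSIG1, -1.61 for SREBF1, -0.63 for SREBF2, -2.56 for ABCG1 and -1.33 for MYLIP. For fatty acid genes with S + D they were -1.45 for ACLY, -2.01 for FASN, -2.27 for SCD, -1.09 for ACSS2, -1.66 for ELOVL6 and 1.12 for FADS2.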

How the results depend on the processing

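Counts are of the 37 genes, called in either direction. Leaving out 1 library at a time gave 14 to 22 for Sal, 13 to 20 for Das and 17 to 25 for S + D against control at 24 h, and 21 to 23, 15 to 21 and 21 to 23 at 72 h. It gave 1 to 5 for S + D against Sal and 0 to 3 against Das at 24 h, 0 to 2 and 18 to 21 at 72 h, 0 to 4 and 10 to 17 for the departures from the sum at 24 h and 72 h, 10 to 14, 0 to 2 and 13 to 19 for the time differences of Sal, Das and S + D, and 0 to 2 for the controls. Requiring also an absolute log2 fold change above 1.5 left 0, 1 and 3 at 24 h and 5, 0 and 5 at 72 h for Sal, Das and S + D against control, 0 for S + D against either drug at 24 h, 0 against Sal and 3 against Das at 72 h, 5 for the departures at 72 h, 3, 0 and 6 for the time differences and 0 for the controls.

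Of settings that moved a count by over 1.5 times, the numbered libraries alone gave 31 with Sal and 31 with Das at 24 h, 17 and 12 for S + D against Sal and Das at 24 h, 6 against Sal at 72 h, 26 for the departures at 24 h, 23, 7 and 27 for the time differences and 6 for the controls. The replicate block gave 5 and 5 for S + D against Sal and Das at 24 h, 8 against Sal at 72 h, 11 for the departures at 24 h and 7 for the controls. The block weakened none of the 292 values of single genes and made 28 of them pass. Calls over all genes tested rose as well. For Sal at 24 h they went from 1109 to 3055 with the block and to 3828 with the numbered libraries alone. Whether the replicate numbers pair the libraries is not settled, and at 72 h the correlations by number were weaker than at 24 h. Deviations of same-numbered libraries then correlated at medians of 0.0730 to 0.178, beside -0.0438 for different numbers. A term for the unnumbered libraries gave 5, 6 and 12 for the same S + D comparisons, 18 and 20 for the departures at 24 h and 72 h, and 7 for the controls. DESeq2 gave 4 for S + D against Das at 24 h, 6 against Sal at 72 h, 11 for the departures at 24 h and 5 for the controls. An adjusted p under 0.05 gave 6, 8 and 3 for those and 6 for the controls, and 18 for the time difference of Sal. All 32 libraries in 1 model gave 1 for S + D against Sal at 24 h, 5 at 72 h and 1 for the departures at 24 h. Only the groups compared gave 11 with Sal at 24 h, 1 for S + D against Sal at 24 h, 0 for the time difference of Das and 3 for the controls. The controls gave 3 with RLE size factors and 2 without the filter, and without the filter the time difference of Das gave 0. No called value changed sign under these alternatives, and the cause of the other changes was not tested. The departures were not fitted with only the groups compared.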
